A study of Mus musculus with 4 samples.

Results

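This report describes 248 cells of the developing mouse hindlimb that carried transcripts of tissue macrophages, taken from 44320 cells kept in 4 single-cell RNA libraries. A member was any kept cell with at least 1 UMI (unique molecular identifier, 1 counted RNA molecule) in 3 or more of the 7 genes Lyz2, C1qa, C1qb, Csf1r, Fcer1g, Tyrobp and Pf4. Members were therefore chosen on measured values, and their levels of these 7 genes are description, not finding. The study dissected the presumptive knee joint of hindlimbs, dissociated it with collagenase D and made 10x Genomics 3' v3.1 libraries. The controls of both ages served to describe interzone cells. The mutants, set against the E14.5 control, served to study why the interzone failed to form after deletion of glucose transporters. The labels name the tissue Interzone and the cell type interzone cells for all 4 libraries.

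There was 1 library per group, and the number of embryos pooled in each was not stated. The labels call both controls, at E13.5 and at E14.5, WT. The paper describes the E14.5 control of the mutants as without Cre. The other libraries, both from E14.5, were Prx1Cre;Glut1f/f;Glut3f/+ (Glut3f/+ below), which loses Slc2a1 (Glut1) and 1 of its Slc2a3 (Glut3) alleles in limb mesenchyme, and Prx1Cre;Glut1f/f;Glut3f/f (DCKO), which loses both genes there. Prx1Cre acts in limb mesenchyme and not in blood cells, so the members of the mutant libraries should carry undeleted transporter genes in a mutant surrounding. Values below are given in the order E13.5 control, E14.5 control, Glut3f/+ and DCKO unless a sentence names the library.

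Macrophages of the embryo arise from yolk sac and fetal liver progenitors, enter the limb bud with the first vessels and clear dying cells between the digits and around the forming joint. They read CSF1 through Csf1r, signal through the adaptors Tyrobp and Fcer1g, make the C1q chains that tag dying cells, and recycle the lipid and iron of what they have eaten. Activated macrophages also take up much glucose, chiefly through Glut1.

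The libraries held 12769, 9707, 11690 and 11602 barcodes with 100344565, 84188147, 97110697 and 91574038 UMIs. Cells with 200 to 6000 genes and at most 10% of UMIs from genes starting mt- were kept, which left 12446, 9305, 11264 and 11305. The members held 250209, 535173, 724293 and 429902 UMIs. Their median was 5546, 3839.5, 7012 and 3258 UMIs per cell, beside 6179, 7287, 6756.5 and 6384 in the other kept cells, so members of the E14.5 control and of the DCKO library were the shallower ones. Few cells carried much of the sum: the 10 deepest members held 66.4%, 44.3%, 33.2% and 45.5% of member UMIs. Between 25 and 40 barcodes were shared by any pair of libraries, and none was a member in both, though 2 member barcodes of Glut3f/+ also occurred in DCKO outside the members.

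The libraries differed in the sex of the embryos. Xist was found in 64.7%, 0.173%, 92.3% and 91.4% of the other kept cells, and a UMI of 4 genes of the Y chromosome in 18.4%, 66.0%, 0.0358% and 0.0267%. Among members, Xist was found in 16, 0, 55 and 37 cells and Y genes in 5, 31, 0 and 0. The E14.5 control thus carried Y genes without Xist, both mutant libraries Xist without Y genes and the E13.5 control both, so that sex cannot be told apart from genotype, nor from age.

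The members made up 35, 62, 82 and 69 cells. This was 0.281% (95% Clopper-Pearson interval 0.196 to 0.391), 0.666% (0.511 to 0.853), 0.728% (0.579 to 0.903) and 0.610% (0.475 to 0.772) of kept cells. These intervals, like all others here, cover counting error only. The share at E14.5 was 2.37-fold that at E13.5 (1.54 to 3.70). The genotypes lay close together: the share in Glut3f/+ was 1.09-fold (0.776 to 1.54) and in DCKO 0.916-fold (0.641 to 1.31) that of the E14.5 control. For members with a C1q UMI these ratios were 0.884 (0.606 to 1.29) and 0.751 (0.506 to 1.11). The E13.5 control also had the lowest share at equal depth. With every cell thinned to 500 UMIs, the expected shares were 0.140%, 0.351%, 0.355% and 0.347%.

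**Figure D1:**
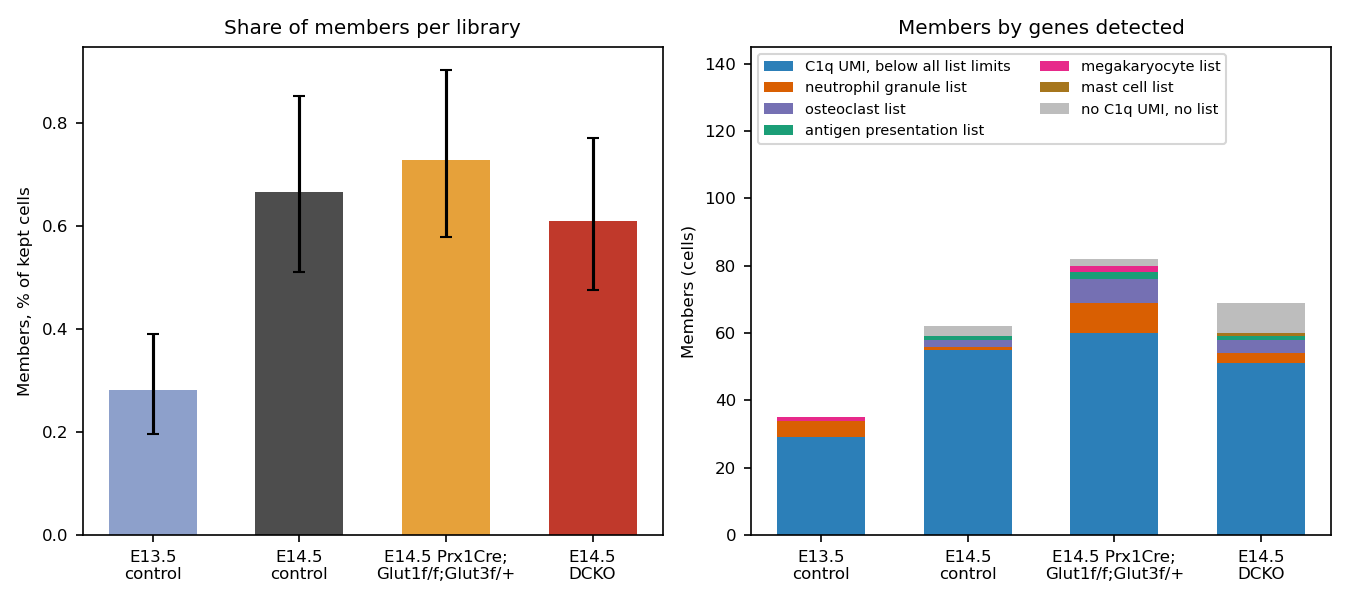
Left, members as % of kept cells in each library, with bars for the share and lines for the 95% exact interval. Right, number of members in each library by the genes they carried. The E13.5 control has the lowest share, 0.281%, and most members of every library hold a C1q UMI and fewer than 4 genes of each of the 5 other lists.

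The 7 rule genes were near absent outside the members. Fcer1g was found in 32, 59, 77 and 63 members and Tyrobp in 30, 54, 72 and 64, at 1375, 1712, 1591 and 1465 CPM (the gene's UMIs over all UMIs of the members of a library, scaled to 10⁶) and at 1239, 1327, 1486 and 1596 CPM. C1qa stood at 1039, 1031, 723 and 996 CPM, C1qb at 1067, 1547, 1319 and 1528 CPM, Csf1r at 316, 239, 202 and 184 CPM, Pf4 at 683, 981, 906 and 842 CPM and Lyz2 at 4033, 1775, 2244 and 1519 CPM. For Pf4, 1 cell held 89 of 171 UMIs at E13.5, and 1 cell held 274 of 656 in Glut3f/+. No rule gene passed 1.59 CPM in the other kept cells of any library, apart from Pf4 with 6.81 CPM in DCKO. Of these 597 Pf4 UMIs, 568 lay in 8 cells with exactly 2 rule genes, just below the rule. The files give these genes as Lyz2 (ENSMUSG00000069516), C1qa (ENSMUSG00000036887), C1qb (ENSMUSG00000036905), Csf1r (ENSMUSG00000024621), Fcer1g (ENSMUSG00000058715), Tyrobp (ENSMUSG00000030579) and Pf4 (ENSMUSG00000029373). The C1q chains are neighbours on chromosome 4 of GRCm38.p6, with C1qb at chr4:136880126-136886200, C1qc at chr4:136889801-136892936 and C1qa at chr4:136895916-136898844. The threshold did not fall in a gap. There were 13, 14, 27 and 24 cells with exactly 3 rule genes and 15, 15, 30 and 19 with exactly 2. Of 18 further macrophage genes, the cells with 3 rule genes carried a median of 3, 3, 5 and 4, and the cells with 2 carried 2, 1, 3 and 2.

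Other macrophage genes were also higher in members, by less as a list than the rule genes, which summed to 9752, 8612, 8469 and 8130 CPM in members and 3.18, 2.89, 4.71 and 10.3 CPM in other cells. Adgre1 (F4/80) reached 79.9, 101, 78.7 and 65.1 CPM and was at most 0.0127 CPM in other cells. Ctss reached 272, 506, 392.1 and 354 CPM against at most 0.282, and the myeloid regulator Spi1 400, 490, 556 and 440 CPM against at most 0.456. Aif1, Cx3cr1, Trem2, Cd68, C1qc and Ptprc were present in all 4 libraries, with C1qc at 707, 934, 657 and 879 CPM. The 18 genes together stood at 4672, 5395, 4660 and 4327 CPM in members and 42.8, 50.7, 52.4 and 50.5 CPM in other cells, with Coro1a or C1qc the most abundant. At least 4 of the 18 were found in 195 of the 248 members.

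Genes of tissue-resident macrophages were detected in fewer members. Mrc1 stood at 140, 321, 210 and 158 CPM, F13a1 at 144, 357, 163 and 95.4 CPM, Stab1 at 160, 213, 150 and 112 CPM and Selenop at 124, 295, 291 and 179 CPM. At least 4 of 16 resident genes were found in 72 members, 70 of them with a C1q UMI. Those 72 were deep, with medians of 13980, 15907, 10348 and 7629 UMIs, against 5546, 3839.5, 7012 and 3258 over all members. The part of depth in the counts of members by list, here and elsewhere, was not tested. Vsig4, Cd209f, Cd209g and Ccl8 had 0 UMIs in all members, Cd163 had 1, 0, 1 and 0, and Timd4 had 0, 1, 4 and 5. Of 8 microglia genes only Sall1 had 0 UMIs in every library, and 11 of 248 members, all C1q-positive, carried at least 4 of the 8. At least 4 of 10 monocyte genes were found in 33 members, 19 of them with a C1q UMI.

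The label of embryonic macrophages went against the genes of some members. At least 4 of the 18 further genes were found in 153 of 199 members with a C1q UMI and 42 of 49 without. The groups differed in depth, with medians of 4580, 2419, 7278 and 1911 UMIs with C1q and 11471, 6951, 5248 and 7530 without. C1qc is also 1 of the 18 genes. The counts therefore cannot tell whether these genes separate members with C1q from those without. Of the 49, 14 passed none of the 5 limits on other lineages given below. Members were divided by C1q, of which C1qa and C1qb are rule genes, so this share is a description. A UMI of C1qa, C1qb or C1qc was found in 199 of 248 members (80.2%, 74.7 to 85.0), called C1q-positive here. The other 49 members, 6, 5, 21 and 17 per library, held no C1q UMI, and 40 of them had exactly 3 rule genes. These 49 held 27.4%, 8.07%, 32.6% and 33.5% of member UMIs, and their part in ratios over all members was not tested. These limits, and the choice to look at C1q-positive members alone, were made after the values had been seen. Of the 248 members, 18 carried at least 4 of 11 granule genes of neutrophils, 13 at least 4 of 11 osteoclast genes, 4 at least 4 antigen-presentation genes, 3 at least 4 megakaryocyte genes and 1 at least 4 mast cell genes. No member passed this limit for more than 1 of these 5 lists, and 35 of these 39 members had no C1q UMI.

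The members with granule genes went against the label most strongly. There were 5, 1, 9 and 3 of them, with a median of 3065 UMIs and 0 C1q UMIs. Granule genes gave 4.00% to 37.8% of their UMIs, with a median of 30.8%. S100a9 alone had 3937 UMIs in 5 members at E13.5 and 3596 UMIs in 9 members of Glut3f/+. In the other kept cells the 11 genes summed to 9.76, 3.62, 4.08 and 6.66 CPM, so these transcripts sat in few cells.

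The members with osteoclast genes numbered 0, 2, 7 and 4 and were deep, with a median of 21793 UMIs. Acp5 had 3, 35, 498 and 102 UMIs over all members, Ctsk 5, 21, 509 and 57, and Mmp9 10, 26, 270 and 94. Of the 13 members, 4 were C1q-positive, and together they held 9 C1q UMIs. They held 21.5% of member UMIs in Glut3f/+, 15.2% in DCKO and 7.48% in the E14.5 control. Oscar and Calcr had 0 UMIs in all members.

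Skeletal transcripts were found in members too: 52 of 248, 40 of them C1q-positive, carried at least 4 of 20 skeletal genes. The limit of 4 is easier to reach in this longer list. With any UMI counted, 21, 47, 55 and 42 members held skeletal transcripts and 20, 23, 22 and 14 held hemoglobin transcripts. At least 4 of 10 muscle genes were found in 1 member and at least 4 of 10 erythroid genes in 1. The mast cell, found in DCKO, held 43 Cpa3 UMIs among 20756, while Cma1, Mcpt4, Tpsb2 and Fcer1a had 0. Cd3e and Ms4a1 had 0 UMIs, and 0 of 248 members carried at least 4 lymphoid, endothelial or glial genes, which allows a share of up to 1.48%. A further 14 members, 0, 3, 2 and 9 per library, had no C1q UMI and passed none of the 5 limits. 3 of them had 17.9%, 6.48% and 4.34% of their UMIs in granule genes while below the limit of 4 genes: a DCKO cell of 1267 UMIs, an E14.5 control cell with 701 of that library's 1388 granule UMIs, and a second DCKO cell.

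**Figure D2:**
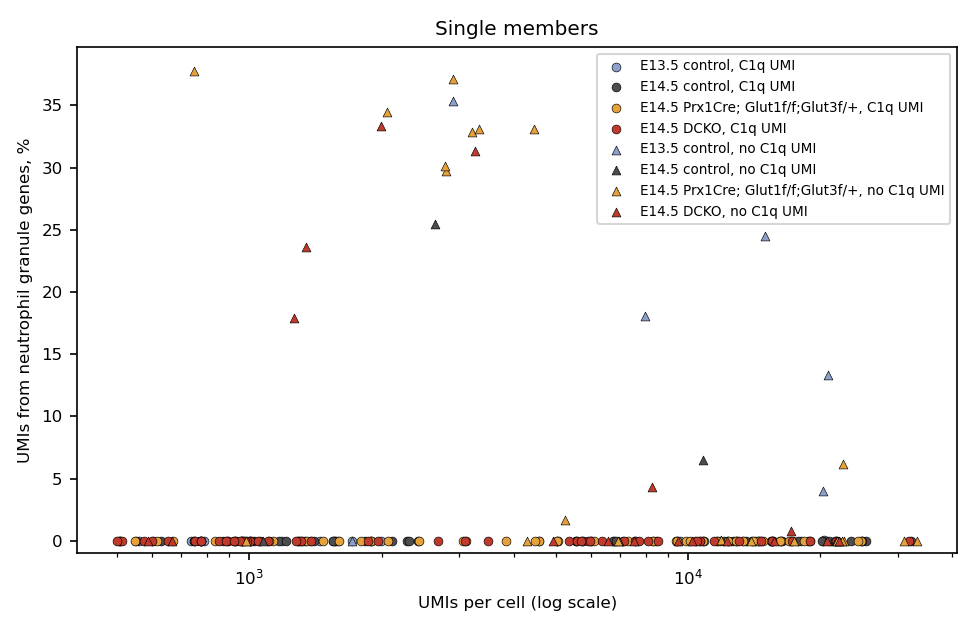
Each point is 1 member, with its UMIs on a log axis and the % of its UMIs from neutrophil granule genes. Colours mark libraries, circles members with a C1q UMI and triangles members without one. Circles lie near 0%, and triangles reach 37.8%.

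Genes shared by the members outside the rule were counted against the other kept cells. Of 1867 genes with at least 20 UMIs in the members of every library, 259 (13.9%) were at least 2-fold higher in members than in other kept cells in all 4 libraries, and 57 (3.05%) at least 2-fold lower. With at least 20 UMIs over all members together, these were 878 (11.5%) and 326 (4.29%) of 7607 genes. Genes had to reach that minimum in the members to be counted, so the counts by list that follow are description. On the higher side were 13 of the 13 macrophage genes that reached it (of 18 in the list), 7 of 7 Fc receptor and adaptor genes (of 15), 5 of 5 iron and heme genes (of 12), 5 of 5 chemokine genes (of 20) and 15 of 19 lysosome genes (of 24). So were 4 of 7 lipid handling genes (of 18) and 2 of 4 efferocytosis genes (of 20). None of 18 proliferation genes, 9 glycolysis genes or 2 hypoxia genes was.

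Lysosome genes summed to 7254, 7620, 7214 and 6599 CPM, beside 1828, 2119, 2027 and 2017 CPM in other cells, with Ctsb or Ctsz leading. Ctsc, which matures granule proteases, stood at 568, 620, 619 and 563 CPM against 4.47 to 6.66. For lipid, Apoe was the leading gene, at 3569, 4815, 5169 and 3833 CPM in members and 22.1 to 25.5 in other cells. For iron, Ftl1 stood at 7294, 8298, 7099 and 7197 CPM against 2076 to 2631, and Hmox1 at 655, 566, 329 and 261 CPM. Hmox1 opens heme and ferritin stores its iron. Hemoglobin transcripts themselves gave only 0.0140%, 0.00691%, 0.00442% and 0.00372% of member UMIs, beside 0.868%, 0.857%, 0.360% and 0.259% in other cells.

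The 15 genes with the largest lowest ratio over other cells, outside the rule and marker lists, were of several kinds, and no shared theme was tested. Ifi207 was at least 5657-fold higher in every library, Ms4a6b 3709-fold, Clec4a2 3195-fold and Ccl4 2091-fold. C3ar1, Fcrls, Fcgr1, Ccl3, Lilrb4a, C5ar1, Igsf6 and Ms4a6d followed, down to 1220.03-fold. These receptors read complement fragments (C3ar1, C5ar1) and immunoglobulin (Fcgr1). The stefin genes Stfa3, Cstdc5 and Stfa1, at 1963-fold, 1880.4-fold and 1719-fold, completed the 15; they are near-identical copies, so which copy was counted is uncertain. They lay in few members, Cstdc5 in 6, 3, 9 and 5, Stfa3 in 5, 3, 10 and 5 and Stfa1 in 7, 4, 14 and 6, so they are not shared by the members at large.

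Secreted signals were high in sum and found in a minority of members. Chemokine and cytokine genes summed to 2298, 1624, 1780 and 1507 CPM in members and 10.7, 14.2, 14.3 and 14.0 CPM in other kept cells. Ccl4 stood at 631, 258, 204 and 268 CPM, Ccl3 at 372, 163, 168 and 193 CPM, Cxcl2 at 324, 473, 624 and 265 CPM, Ccl12 at 120, 215, 130 and 114 CPM and Ccl9 at 71.9, 110, 148 and 137 CPM. Cxcl2 was found in 7, 12, 23 and 11 members, Ccl12 in 7, 14, 12 and 14 and Ccl4 in 10, 13, 21 and 16. Ccl3, Ccl4 and Cxcl2 draw monocytes and neutrophils, and Ccl9 osteoclast precursors. Csf2 and Il34 had 0 UMIs in all members.

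Fc receptor and complement receptor genes were higher in members as well. The Fc receptor and adaptor list summed to 1307, 1558, 1323 and 1172 CPM, beside 15.7 to 30.4 CPM in other cells, with Fcgr1 at 99.9, 153, 88.4 and 107 CPM. C3ar1 stood at 184, 163, 188 and 156 CPM, and Rac2, a GTPase of the phagocyte oxidase and cytoskeleton, at 524, 443, 472 and 456 CPM. Cybb, the oxidase subunit, stood at 300, 116, 137 and 95.4 CPM. Of 8 macrophage regulators that reached the minimum, 4 were at least 2-fold higher in members of all 4 libraries and 1 lower. Id3 was lower in members, at 232, 112, 133 and 188 CPM against 590 to 879, and so was Klf2, by less than 2-fold at E13.5, at 156, 181, 99.4 and 249 CPM against 267 to 821.

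Transcripts of the surrounding skeleton were low in members and not absent. The 20 skeletal genes gave 0.226%, 0.265%, 0.177% and 0.205% of member UMIs and 0.646%, 1.61%, 1.44% and 1.46% in other cells. Col2a1 led the difference, at 360, 605, 442 and 547 CPM against 1296, 4304, 4009 and 4130. Cells with endothelial markers, which should lack them too, had 0.146%, 0.315%, 0.307% and 0.135%, and hemoglobin-rich cells 0.136%, 0.240%, 0.608% and 0.382%. The part of free RNA in the skeletal UMIs of members was not tested.

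**Figure D3:**
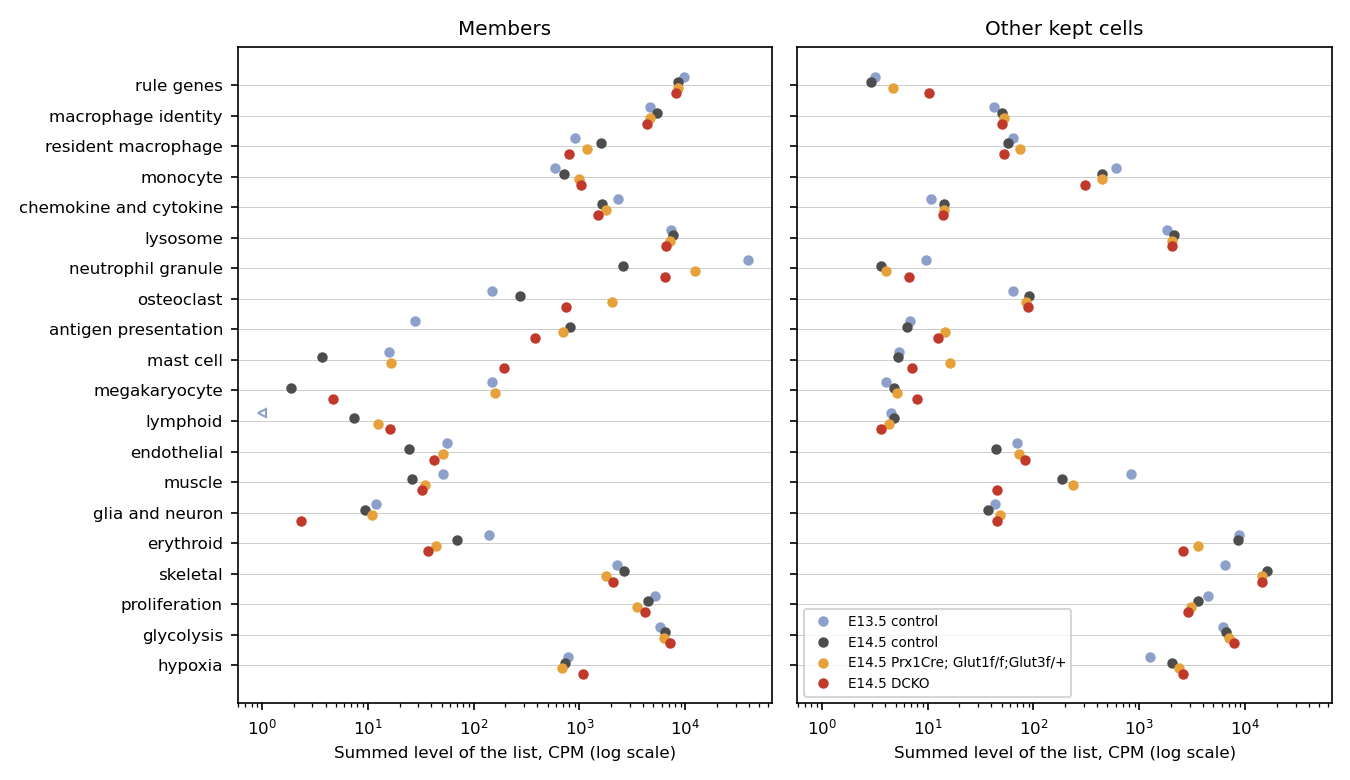
Summed CPM on a log axis of 20 gene lists in members (left) and in other kept cells (right), with 1 point per library. Macrophage lists lie far to the right in members, glycolysis and proliferation lists lie alike in both, and the open triangle marks 0 lymphoid UMIs at E13.5.

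Ligands read by such cells differed in level in the other cells. Cxcl12 stood at 82.2, 47.1, 67.3 and 36.0 CPM there and Tgfb2 at 117.7, 63.5, 73.6 and 54.2 CPM. Csf1 stood at 4.96, 5.80, 5.12 and 4.50 CPM in other kept cells, against 5.51, 12.2, 0 and 49.0 CPM in C1q-positive members (1, 6, 0 and 14 UMIs), and Il34, the second ligand of Csf1r, at 0.0218, 0.0635, 0.0434 and 0.0912 CPM. Cx3cl1, the ligand of Cx3cr1, stood at 1.43, 1.57, 1.80 and 1.71 CPM. Among the bridging proteins for dying cells, Mfge8 was at 58.8, 108, 99.8 and 105 CPM and Gas6 at 4.09, 6.78, 5.22 and 5.92 CPM in other cells, while Gas6 reached 63.9, 84.1, 41.4 and 37.2 CPM in members. Tgfb1 was higher in members, at 120, 157, 137 and 135 CPM against 7.51 to 10.8.

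Promoters of the rule and macrophage genes were read for GAGGAAGT, the letters of the usual motif of the myeloid factor PU.1, which Spi1 encodes. Promoters were the 250 bases before and 50 after a RefSeq start in GRCm38.p6. Some genes had more than 1 start, and a start need not be the end of the gene span given above. Both strands were read, so the motif also appears as ACTTCCTC. It was found in 1052 of 32851 promoters (3.20%), which belong to 997 of 27025 genes (3.69%). Of the 7 rule genes 4 were matched to a promoter and 1 (Pf4) held it, and of the 18 macrophage genes 14 were matched and 3 (C1qc, Cd53, Ctss) held it. Of the 11 granule genes 4 of 11 held it, and of the osteoclast genes 0 of 5 matched. The 2 sequences below show a match in a C1q gene and in a rule gene, with the motif in capitals and the rest in lower case. The C1qc promoter lies at chr4:136892865-136893164 on the minus strand and that of Pf4 at chr5:90772185-90772484 on the plus strand. A match is a description, not a site or a cause.
C1qc: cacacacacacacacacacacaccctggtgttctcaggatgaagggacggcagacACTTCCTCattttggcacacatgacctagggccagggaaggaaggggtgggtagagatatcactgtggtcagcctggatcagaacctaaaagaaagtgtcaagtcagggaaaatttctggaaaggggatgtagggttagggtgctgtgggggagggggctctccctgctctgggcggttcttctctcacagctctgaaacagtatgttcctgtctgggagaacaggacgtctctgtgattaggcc
Pf4: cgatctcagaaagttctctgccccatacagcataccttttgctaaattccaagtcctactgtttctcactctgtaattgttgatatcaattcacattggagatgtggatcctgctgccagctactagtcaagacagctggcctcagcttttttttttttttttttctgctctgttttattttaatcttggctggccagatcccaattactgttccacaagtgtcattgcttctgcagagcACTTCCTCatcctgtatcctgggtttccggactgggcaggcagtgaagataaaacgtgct

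The comparison of the 2 controls asked how the members differ between E13.5 and E14.5, as the interzone forms and the joint begins to part. Over that day the limb gains vessels and cartilage matrix. This comparison and the 2 that follow share the E14.5 control library. Of 4902 genes with at least 20 UMIs, 297 (6.06%) were at least 2-fold higher at E14.5 and 318 (6.49%) at least 2-fold lower, with a median log2 ratio over all genes of 0.04. With TMM factors 446 were higher and 243 lower, and the median was 0.18.

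Most neutrophil granule genes were lower at E14.5 and came from few cells. Their median log2 ratio was −3.90 over 7 genes, and the 11 genes of the list summed to 38899.5 and 2594 CPM. Of the list, Ngp had 9 UMIs at the later age against 882 (−7.71), Camp 20 against 1268 (−7.08) and Ltf 1 against 149. Genes outside the list were lower too: Lcn2 had 9 against 389 (−6.53), Fcnb 1 against 56, Cebpe 1 against 38 and Cstdc5 89 against 959 (−4.53). Serpinb1a, also outside the list, was at least 25.0-fold lower, with 0 against 35. Retnlg, a gene of the list, went the other way, with 48 UMIs against 10 (1.17, 0.16 to 2.31), each in 1 cell. Of the members, 5 of 35 at E13.5 and 1 of 62 at E14.5 carried at least 4 granule genes. Lyz2, a rule gene, was at −1.18 in all members and −0.94 in C1q-positive ones, but at 0.19 with the mean of each cell's CPM and 0.56 in members with at most 3000 UMIs.

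Antigen-presentation genes were higher at E14.5, again in 1 cell. Cd74 had 218 UMIs against 2, with a log2 ratio of 5.67 (3.80 to 8.73), and 204 of the 218 sat in 1 member. H2-Aa, H2-Ab1 and H2-Eb1 had 79, 76 and 64 UMIs against 0, at least 12.3-fold, 11.8-fold and 9.97-fold higher, and reached the minimum through E14.5 alone. Hspb1, not an antigen-presentation gene, had 64 UMIs against 1, and 63 of them sat in a different member, which was C1q-positive. These differences describe single cells, not a group.

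Other genes differed in more cells. S100a4 had 132 UMIs at E14.5 and 1 at E13.5, a log2 ratio of 5.95 (3.44 to 11.26). Lyve1, a receptor of resident macrophages near vessels, had 35 UMIs in 8 members against 0, at least 5.45-fold higher. Lyve1 reached the minimum through E14.5 alone, so it could only come out higher. Isg15 had 30 UMIs against 1 (3.81, 1.22 to 9.16). Over 8 resident genes the median log2 ratio was 0.81, with Mrc1 (1.20, 0.67 to 1.77), Lyve1, F13a1 and Selenop (1.25) at least 2-fold higher and Ccl24 at least 2-fold lower. Monocyte genes had a like median, 0.80 over 7, with Ccr2, S100a4 and Ms4a4c at least 2-fold higher and Vcan lower. The 18 macrophage genes stayed near level, with a median of 0.30, as did 23 lysosome genes, with 0.02.

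In C1q-positive members alone, 29 at E13.5 and 57 at E14.5, 274 of 4375 genes (6.26%) were at least 2-fold higher and 223 (5.1%) lower, with a median of −0.01. Granule genes no longer reached the minimum. The resident median was 0.56. Of the 4 resident genes named above only Lyve1 stayed at least 2-fold higher, again with 0 UMIs at E13.5 and the minimum reached through E14.5 alone. Mrc1 was at 0.86, Selenop at 0.91 and F13a1 at 0.92. Of 12 chemokine and cytokine genes 5 were at least 2-fold lower at E14.5 in these cells: Ccl3 stood at 512 and 177 CPM, −1.53 (−1.97 to −1.10), Cxcl10 had 72 and 25 UMIs, −2.96 (−3.68 to −2.29), and Tnf 20 and 14 UMIs, −1.95 (−3.05 to −0.89). Ccl4 was lower as well, −1.76 (−2.11 to −1.42), with 107 of its 158 UMIs at E13.5 in 1 cell. Ccl24 was the fifth. At E13.5, Cxcl10 lay in 5 of the 29 cells with 28 of its 72 UMIs in 1, and Ccl24 in 5 with 10 of 18 in 1. Tnf lay in 6 cells, and Ccl3 in 14 with 39 of its 93 UMIs in 1. Cxcl2 (0.18), Ccl12 (0.50), Ccl7 (0.15) and Ccl9 (0.12) were not lower. The 12 genes had a median of −0.80, and −0.28 over 12 genes in all members. Pf4, a rule gene, was higher at 1.24 (0.90 to 1.59), and the share of C1q-positive members was 2.63-fold (1.65 to 4.26) that at E13.5.

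The comparison of Glut3f/+ with the E14.5 control asked what macrophages look like in a limb whose mesenchyme lacks Glut1 and keeps 1 copy of Glut3. Glut1 is the main glucose transporter of limb cartilage, and the members lie outside the lineage in which it was deleted. Of 6244 genes, 235 (3.76%) were at least 2-fold higher in Glut3f/+ and 217 (3.48%) at least 2-fold lower, with a median of −0.05.

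The higher genes included 10 granule, 4 osteoclast and 3 megakaryocyte genes. The megakaryocyte list had 116 UMIs in Glut3f/+ and 1 in the control, so its 3 genes reached the minimum through Glut3f/+ alone. Granule genes summed to 12256 CPM against 2594, and several reached the minimum through Glut3f/+ alone. Ctsg with 234 UMIs, Mpo with 122, Elane with 77 and Ms4a3 with 62 had 0 in the E14.5 control and each lay in 1 Glut3f/+ cell, as did 347 of 354 Prtn3 UMIs. Ltf had 124 UMIs against 1 (6.52) and Ngp 341 against 9 (4.81). Nrgn had 67 against 0, in 2 cells. Osteoclast genes summed to 2048 CPM against 277 and had a median of 3.05 over 6 genes, with Ctsk at 4.16 (3.53 to 4.87), Acp5 at 3.39 (2.90 to 3.93), Atp6v0d2 at 3.17 and Mmp9 at 2.94. The library held 7 of 82 members with at least 4 osteoclast genes, against 2 of 62. These genes encode the acid phosphatase, the collagen-cutting protease, a proton pump subunit and the gelatinase of cells that resorb cartilage and bone. The part of these few deep cells in the other ratios was not tested.

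Among lower genes, Isg15 had 7 UMIs against 30, a log2 ratio of −2.54 (−3.97 to −1.32), and Emilin2 6 against 26, −2.55 (−4.12 to −1.24). F13a1 had 118 against 191 (−1.13, −1.47 to −0.79), but was at −0.65 in C1q-positive members and at 0.21 (−1.69 to 2.11) in members with at most 3000 UMIs. Also lower were Ms4a4c with 10 against 28 (−1.92, −3.13 to −0.84), Msr1 19 against 41 (−1.55, −2.41 to −0.73), Bin1 69 against 110 (−1.11, −1.57 to −0.66) and Xlr 9 against 25 (−1.91). Hspb1 had 2 against 64, and 63 of the 64 lay in 1 C1q-positive control member. Macrophage genes had a median of −0.14 over 18 genes and resident genes −0.59 over 8.

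In C1q-positive members, 61 against 57, the osteoclast genes were on the other side, with a median of −1.95 over 5 genes. Both control members with at least 4 osteoclast genes were C1q-positive and only 1 of the 7 in Glut3f/+ was, so this choice of members kept the former and dropped most of the latter. Single control cells held 25 of 35 Acp5 UMIs and 19 of 22 Mmp9 UMIs. There 168 of 5459 genes (3.08%) were at least 2-fold higher and 174 (3.19%) lower, with a median of 0.01. Apoc1 was higher with 94 UMIs in 13 cells against 14 in 5, a log2 ratio of 2.76 (1.94 to 3.68). Tnf had 51 UMIs against 14 (1.88, 1.002 to 2.85), Rgs1 20 against 3 (2.75, 0.996 to 5.14), Lpl a ratio of 1.08 (0.62 to 1.56) and Cd14 1.33 (0.73 to 1.97). The lists that hold Lpl and Cd14 lay near level, with 1 of 12 lipid handling genes higher and a median of 0.13, and 1 of 18 macrophage genes higher and a median of 0.10. The chemokine and cytokine list that holds Tnf had 3 of 13 higher (Ccl7, Il1b and Tnf) and a median of 0.62. Monocyte genes had a median of −1.13 over 7 genes, with Fn1, Vcan, S100a4 and Ms4a4c at least 2-fold lower. In all members their median was −0.11 over 8 genes and S100a4 was higher, with 432 UMIs against 132 (1.27, 0.99 to 1.57). In C1q-positive members resident genes were level at −0.15 over 8. Of 15 skeletal genes 9 were at least 2-fold lower in these members, Col2a1 (−1.52) among them, and Lum was at least 2-fold higher.

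The comparison of DCKO with the E14.5 control asked the same of a limb whose mesenchyme lacks both transporters. Of 5356 genes, 142 (2.65%) were at least 2-fold higher in DCKO and 243 (4.54%) at least 2-fold lower, with a median of −0.05. Several genes of the higher side again came from few cells. The single mast cell gave 43 Cpa3 UMIs against 0 and 19 of 22 Hdc UMIs, and 253 of 317 Spp1 UMIs (3.01) lay in 1 member. Slpi had 54 UMIs against 4 (4.07), Ifitm1 44 against 4 (3.78), Cstdc5 378 against 89 (2.40), Csta3 22 against 3 (3.19) and Mmp9 94 against 26 (2.17, 1.53 to 2.86). Lists of other lineages differed too, with medians of 1.59 over 6 osteoclast genes, 1.30 over 4 granule genes and −1.46 over 4 antigen-presentation genes. These lists summed to 747, 6355 and 379 CPM in DCKO against 277, 2594 and 820.3 CPM. Without the members with granule genes, 124 genes were higher and 229 lower. The part of the other lists was not tested.

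Resident macrophage genes were among the lower lists in DCKO. Their median log2 ratio was −1.01 over 8 genes, with Mrc1, Lyve1, F13a1 and Gas6 at least 2-fold lower. These ratios are over all member UMIs, of which members without a C1q UMI held 33.5% in DCKO and 8.07% in the E14.5 control. The part of that mix of cells was not tested. F13a1 had 41 UMIs in 17 members against 191 in 27, a ratio of −1.90 (−2.43 to −1.41). Lyve1 had 6 UMIs against 35 (−2.23, −3.77 to −0.96), and Mrc1 was at −1.02 (−1.45 to −0.61). In members with at most 3000 UMIs alone, 33 against 31 cells, the ratio of Lyve1 was 0.24 (−3.55 to 4.02), too wide an interval to tell. The chemokine receptors Ccr2, with 14 UMIs against 70 (−2.01, −2.95 to −1.16), and Cx3cr1 (−1.04, −1.43 to −0.65) were lower as well, as were Npl with 8 against 49 (−2.30, −3.59 to −1.21), Ms4a4c with 3 against 28 (−2.91, −5.27 to −1.21), Xlr with 3 against 25 (−2.74), Hspb1 with 0 against 64 and Hmox1 (−1.12, −1.45 to −0.80). Macrophage transcripts at large lay closer to level, with a median of −0.32 over 18 macrophage genes and −0.18 over 23 lysosome genes. H2-Aa, 19 UMIs against 79, lay in 1 cell of each library.

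C1q-positive members, 52 against 57, kept part of this pattern, while Mrc1 (−0.62), Cx3cr1 (−0.63) and Hmox1 (−0.85) no longer reached 2-fold. There 103 of 4653 genes (2.21%) were at least 2-fold higher and 268 (5.76%) lower, with a median of −0.05. F13a1 stood at 136 CPM against 374 (−1.46, −1.99 to −0.95), in 16 cells against 25, and Lyve1 had 5 UMIs against 35 (−2.02, −3.73 to −0.67). Folr2, also a resident gene, went the other way with 14 UMIs against 11 (1.13, −0.11 to 2.41). The resident median was −0.65 over 8 genes. Monocyte genes had a median of −1.39 over 7, led by Ccr2 with 6 UMIs against 50 (−2.28, −3.79 to −1.05), Plac8 with 4 against 29 (−2.08, −4.04 to −0.57) and Ms4a4c with 0 against 22. In all members the monocyte median was instead 0.09 over 7 genes, with Plac8 (78 UMIs against 42, 1.21) and S100a4 (269 against 132, 1.34) higher. C1qa, C1qb and C1qc, used to choose these cells, were at 0.42, 0.45 and 0.38.

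Apoc1, Rgs1 and Cd74 were also higher in C1q-positive members of DCKO. Apoc1 had 42 UMIs in 9 cells in DCKO, a ratio of 2.37 (1.47 to 3.36), with 21 of the 42 in 1 cell, and Rgs1 18 UMIs (3.37, 1.59 to 5.77), with 11 in 1 cell. Cd74 had 11, 30 and 26 UMIs in the E14.5 control, Glut3f/+ and DCKO, with ratios of 1.46 and 2.02. Both ratios divide by the same control cells. Median depth was 2419, 7278 and 1911 UMIs in these groups, and its part was not tested.

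**Figure D4:**
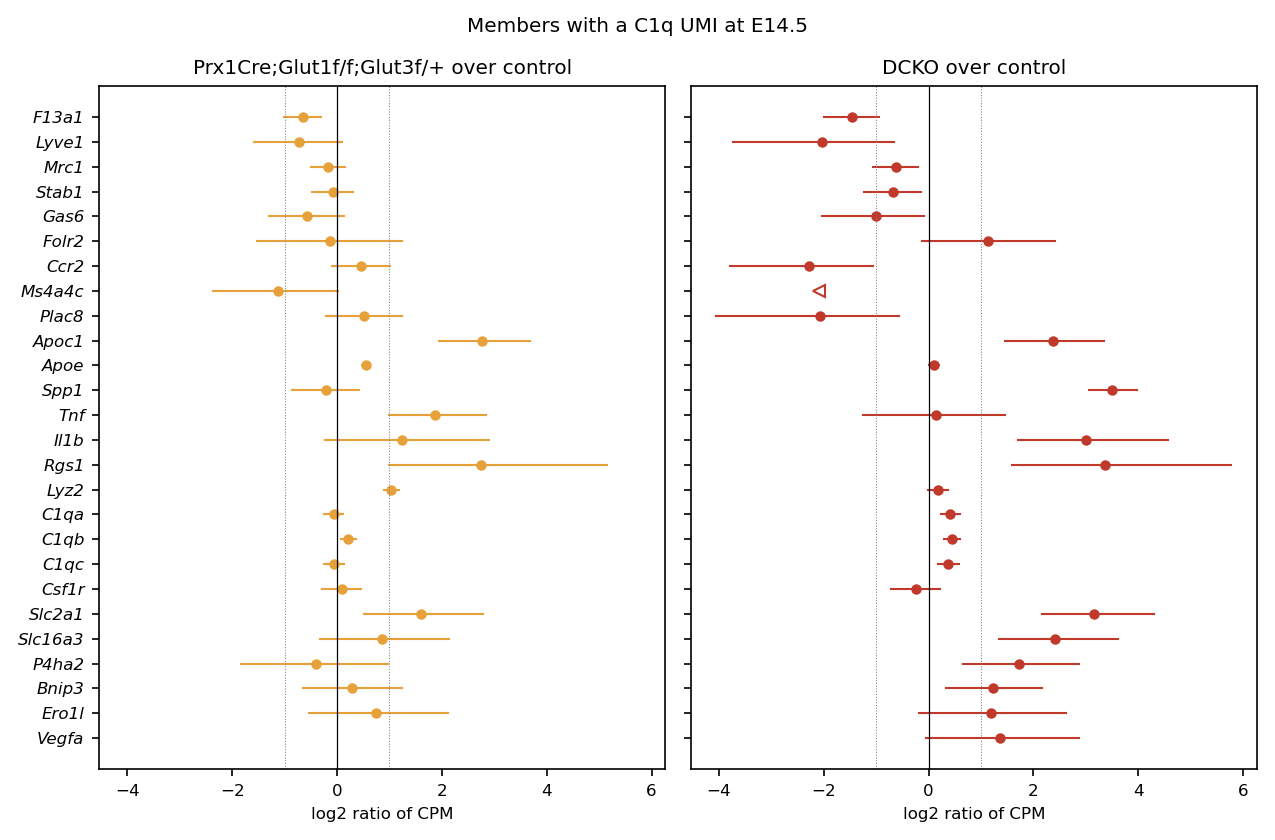
Log2 CPM ratios (points) with 95% exact intervals (lines) in C1q-positive members at E14.5, for Glut3f/+ over control (left) and DCKO over control (right). Dotted lines mark 2-fold and the open triangle a bound. F13a1 and Ccr2 lie left of 0 in DCKO, and Slc2a1 and Apoc1 lie right of 0 in both.

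The deleted transporter gene itself was higher in the members of mutant limbs. Slc2a1 had 8, 11, 45 and 61 UMIs in members, or 32.0, 20.6, 62.1 and 142 CPM. Its log2 ratio to the E14.5 control was 1.60 (0.62 to 2.70) in Glut3f/+ and 2.79 (1.85 to 3.86) in DCKO. In C1q-positive members it was found in 6, 15 and 12 cells of the 3 E14.5 libraries, at 20.3, 61.5 and 182 CPM, with ratios of 1.60 (0.53 to 2.79) and 3.16 (2.17 to 4.30). In the other kept cells Slc2a1 was higher as well, at 48.2, 65.0, 341 and 429.7 CPM. Counts per gene do not show deleted exons, so these values do not tell intact transcripts from truncated ones, and the part of free RNA from other cells was not tested. Slc2a3 stayed rare in members, with 4, 3, 13 and 10 UMIs.

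Some hypoxia genes were higher in DCKO members, beside Slc2a1: 5 of 11 were at least 2-fold higher in C1q-positive members (2.21% over all genes) and 4 of 12 in all members (2.65%). In C1q-positive members their median log2 ratio was 0.83 over 11 genes, with Slc16a3 at 2.42 (1.35 to 3.61), P4ha2 at 1.72 (0.66 to 2.86), Bnip3 at 1.24 (0.33 to 2.17), Ero1l at 1.20 (−0.17 to 2.62) and Vegfa at 1.37 (−0.04 to 2.86). Egln1 (−0.50, −1.44 to 0.37) and Bnip3l (−0.04) were not higher. In all members the median was 0.77 over 12, and Slc16a3 was at 1.90 (0.96 to 2.93). In Glut3f/+ the list stayed near level, with −0.18 over 11 genes in all members. Glycolysis genes, which include the direct users of glucose, were at 0.12 over 12 genes in all DCKO members and 0.20 over 12 in C1q-positive ones. Slc16a3 exports lactate, and Vegfa is the vessel growth factor of the same list. The list summed to 1249, 2035, 2358 and 2582 CPM in other kept cells and 787, 732, 679 and 1077 CPM in members.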

How the data were processed

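The counts were the deposited UMI matrices, which the authors made with Cell Ranger 6.1.2 against mm10. Counts of 32285 genes were read with Python 3.11.15, numpy 2.4.6, scipy 1.17.1 and pandas 2.3.3. UMIs of the members of a library were summed and given as CPM of their total. Ratios between libraries carry a 95% exact conditional interval for 2 counts, and shares a 95% Clopper-Pearson interval. A sum of 0 was replaced by a floor of 3 counts and the ratio given as a bound. Genes needed at least 20 UMIs over both groups, and 2-fold was the limit for counting. The members and the lists were chosen with earlier results of these data known. Of 433 genes written in 33 lists, 429 matched.

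Genes were named by rule: the 7 rule genes, the leading genes of each list, the 15 genes with the largest lowest ratio of members to other kept cells, and up to 8 genes per direction and comparison, those with the interval bound farthest from 0 among genes at least 2-fold higher in members than in other cells. Slc2a1, Slc2a3 and Xist were always taken. Other genes named were picked after their values had been seen. Scrublet (scanpy 1.11.5) and TMM (edgeR 4.0.16, R 4.3.3) served as alternatives. Figures were drawn with matplotlib 3.10.9. The scripts were tested on simulated data.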

Additional observations from a re-analysis of the deposited data

How the results depend on the processing

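With 1 library per group, spread between embryos cannot be estimated, and age, genotype and sex of the embryos cannot be told apart from the library. Members were few, uneven in depth and not all macrophages, and many named genes rest on 1 cell. Without the member with the most UMIs of the gene in each group, 18 ratios moved and 44 did not. In members with at most 3000 UMIs, 31 named-gene ratios moved, 5 changed sign and 10 kept their size. With at least 5 of 7 rule genes 25 moved, 1 changed sign and 25 did not move, and with the mean of each cell's CPM 36, 1 and 37. In C1q-positive members these were 22, 1 and 28, and without the members with granule genes 14, 1 and 46. Settings that change only the minimum leave a ratio as it is. With at least 5 of 7 rule genes Prtn3 in Glut3f/+ went to −1.37, and in C1q-positive members to −1.31. In members with at most 3000 UMIs, Lyz2 between the controls went to 0.56, F13a1 in Glut3f/+ to 0.21 (−1.69 to 2.11), and in DCKO Mmp9 to −0.18 (−2.95 to 2.38), Xlr to 0.24 (−6.06 to 6.53) and Lyve1 to 0.24 (−3.55 to 4.02). With the mean of each cell's CPM, Lyz2 between the controls was 0.19. Without the members with granule genes, Cstdc5 between the controls was 1.78. The median of osteoclast genes in Glut3f/+ was −1.95 in C1q-positive members.

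The shares of members depended on the rule. With at least 2 rule genes they were 0.402%, 0.828%, 0.994% and 0.778%. With at least 4 they were 0.177%, 0.516%, 0.488% and 0.398%, so Glut3f/+ lay below the E14.5 control, as it did with at least 5. With at least 5 they were 0.137%, 0.398%, 0.373% and 0.336%, and thinned to 500 UMIs 0.140%, 0.351%, 0.355% and 0.347%. With 500 to 6000 genes and at most 5% mt- UMIs the DCKO share was 0.470%, and with a C1q UMI the shares in Glut3f/+ and DCKO were 0.542% and 0.460%, beside 0.613% in the E14.5 control.

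The counts of genes past 2-fold depended on the settings as well. With at least 5 rule genes 189 of 3763 genes (5.02%) were lower between the controls and 153 of 4866 (3.14%) higher in Glut3f/+. In members with at most 3000 UMIs far fewer genes reached the minimum, so the counts were smaller while the shares past 2-fold were larger. Higher and lower were 50 and 32 of 458 genes (10.9% and 6.99%) between the controls. They were 41 and 52 of 537 (7.64% and 9.68%) in Glut3f/+ and 49 and 29 of 565 (8.67% and 5.13%) in DCKO. In these members 35 of 150 genes (23.3%) were higher than in other cells. TMM factors gave 446 higher and 243 lower between the controls, against 297 and 318. The mean of each cell's CPM gave 667 and 684, 768 and 556, and 581 and 642. At least 50 UMIs gave 68 and 82 of 2312 genes, 65 and 43 of 3338, and 32 and 45 of 2665, with 111 of 708 (15.7%) higher in members. No minimum gave 860 and 2386 of 13271, 963 and 1218 of 13769, and 1051 and 1149 of 13336, with 988 of 9550 (10.3%) higher in members.

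Lists with a median past 2-fold numbered 2, 3 and 4 in the 3 comparisons. They were 1, 1 and 2 with at least 5 rule genes and 1, 1 and 1 in members with at most 3000 UMIs. Between the controls they were 4 with the mean of each cell's CPM, 5 with no minimum, 0 in C1q-positive members, 1 without granule members and 4 without the 6% of cells with the highest Scrublet scores. In DCKO they were 1 in C1q-positive members and 2 without granule members. The automatic Scrublet limit called 0, 2, 0 and 0 cells and removed 0 members, so no member was called; the limit of 6% was chosen after that was seen and removed 0, 2, 1 and 2 members.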

Other observations

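Cell-cycle transcripts were as high in members as around them. The 20 proliferation genes summed to 5116, 4408, 3503 and 4159 CPM in members and 4419, 3565, 3072 and 2894 CPM in other kept cells. At least 4 of them were found in 27, 37, 51 and 38 members, which had medians of 6787, 12857, 12327 and 8183 UMIs. In C1q-positive members Cenpf had 52 UMIs in the E14.5 control, 23 in Glut3f/+ and 6 in DCKO, a log2 ratio of −2.33 (−3.84 to −1.11) in DCKO, while the list's median was −0.14 over 20 genes.

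The ATF4 genes summed to 776, 913, 1105 and 1666 CPM in other kept cells and 647, 988, 875 and 1063 CPM in members. In members 2 of 10 of these genes, Asns and Slc7a11, were at least 2-fold higher in DCKO than in the E14.5 control (2.65% over all genes), with a list median of 0.13. In C1q-positive members 1 of 9, Asns, was (2.21% over all genes), with a median of −0.01. Immediate early genes summed to 3809, 2872, 3131 and 3829 CPM in members, and the part of tissue digestion in them was not tested.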
